A study of Mus musculus with 2 samples.

Results

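Tumour necrosis factor (TNF), its receptors and the proteins that carry or restrain its signal were followed across a library of IL-10-treated and a library of untreated mouse macrophages. The members are 10 genes fixed by name: Tnf, Tnfrsf1a, Tnfrsf1b, Ltbr, Tnfaip3, Tnip1, Tradd, Ripk1, Traf2 and Adam17. They stand among 10546 genes with reads on introns of their own, of which 8367 had at least 20 reads over both libraries, the minimum used throughout. All 10 members passed it, with 86 to 5856 reads. Male C57BL/6JJcl mice gave the cells of both groups: 3 days after thioglycolate, an irritant that draws cells into the peritoneum, peritoneal cells were collected, and those that adhered over 24 h were kept as macrophages. The treated group received IL-10 at 100 ng/ml for 4 h. The other group is labelled untreated, and no further stimulus, age or number of animals is given for either. There was 1 library per group, so nothing here has a replicate check: a ratio sets these libraries side by side, not the conditions, and its 95% interval holds counting error alone.

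TNF is made as a membrane protein, and the protease Adam17 cuts it free. It binds a receptor with a death domain, encoded by Tnfrsf1a, and a receptor without one, encoded by Tnfrsf1b. Ltbr encodes the related receptor for lymphotoxin. At the first of these receptors Tradd, Ripk1 and Traf2 assemble a platform of ubiquitin chains that leads to NF-kB or, when the platform fails, to cell death. The ubiquitin-editing enzyme encoded by Tnfaip3 and its partner encoded by Tnip1 take that platform down, and both genes are known targets of NF-kB. IL-10 is known for lowering TNF output of macrophages that have met a microbial stimulus.

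The value of a gene is the number of reads that cross its introns. The IL-10 library held 3998954 spliced reads and the untreated library 4035991, of which 3838870 and 3867267 lay on introns of a single named gene. The members took 6790 and 7490 of those, or 0.177% and 0.194%. The ratio given for a gene is its share of named reads with IL-10 over its share without. Of 8 macrophage markers 7 were measured, with 59782 reads in all with IL-10 and 76657 without, and Cd14 had no value by the naming rule. Lyz2 carried most of that gap (31849 and 45047 reads). By the interval Lyz2, Csf1r, Cd68 and Mertk were lower with IL-10, Itgam (1.32, 1.16 to 1.51) and Fcgr1 (1.214, 1.048 to 1.407) were higher, and the interval of Adgre1 included 1. The measured markers of other cell types were low beside those of macrophages. Neutrophil markers summed to 141.2 and 126.2 RPM, reads per 1000000 named reads (2 of 7 measured, with no value by the naming rule for S100a8, S100a9, Ly6g, Mpo and Elane). Fibroblast and mesothelial markers summed to 331 and 299 (8 of 8 with reads). Of the members, only Tnfrsf1b (702 and 817 RPM) and Adam17 (410 and 507) stood above that sum. By the interval Col1a2 (1.23, 1.08 to 1.40) and Col3a1 (1.38, 1.11 to 1.72) were higher with IL-10. Dcn (0.756, 0.576 to 0.988) was lower, and the intervals of Col1a1 and Pdgfra included 1. Mast cell and eosinophil markers summed to 26.8 and 17.6 (3 of 5), of which Siglecf had 86 and 48 reads (1.805, 1.25 to 2.63). T and NK cell markers (1 of 6) and B cell markers (2 of 4) stayed under 2 in each library. Their part in the results was not tested. In such bulk samples fewer cells of a type and less RNA per cell cannot be told apart.

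No member differed 2-fold. Across all genes, 3.24% of those tested were at least 2-fold different with an interval that excluded 1, in either direction. With the interval alone, 2 members stood higher in the IL-10 library (Tnfrsf1a and Ripk1) and 4 lower (Tnf, Tnfrsf1b, Tnip1 and Adam17), against 12.8% of all genes higher and 13.1% lower. The rate depends on depth. It was 6.21% higher and 7.14% lower for genes of 20 to 100 reads (the band of Tnf), and 10.4% and 10.9% for genes of 100 to 500 reads (Tnfaip3, Tradd and Traf2). It was 20.7% and 17.1% for genes of 500 to 1500 reads (Tnfrsf1a, Ltbr, Tnip1 and Ripk1), and 27.7% and 28.9% for genes of 1500 to 6000 reads (Tnfrsf1b and Adam17). The median log2 ratio of the members was 0.01, and that of all genes tested was 0.00. All 10 members lay between the 5th and the 95th percentile of log2 ratios of genes with a like number of reads.

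**Figure D1:**
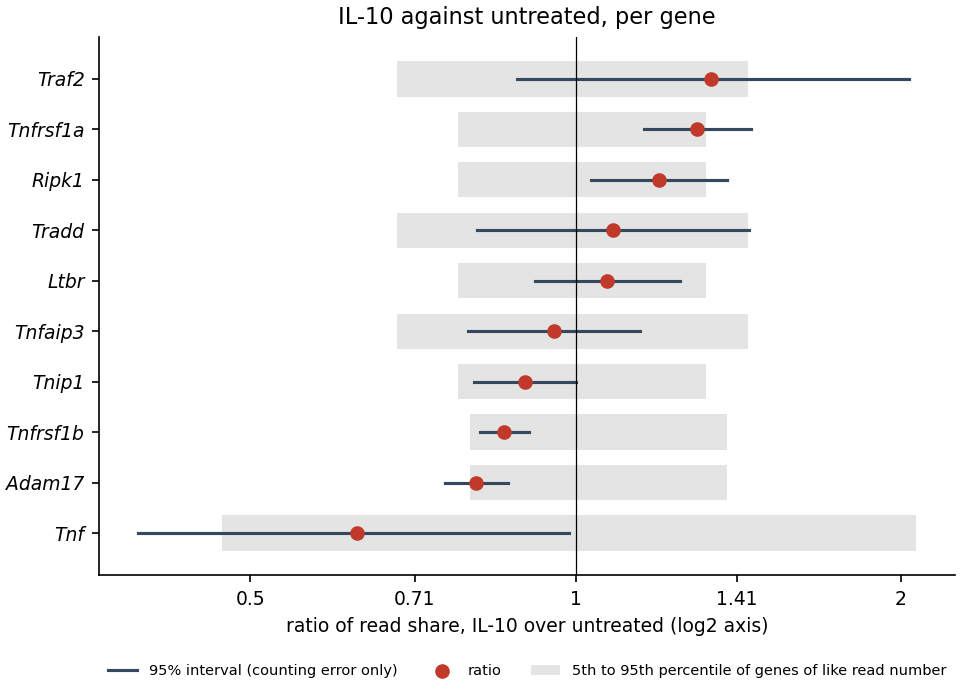
Ratio of read share, IL-10 over untreated, on a log2 axis for each of the 10 genes (points), with exact 95% intervals of counting error (lines) and the 5th to 95th percentile of genes with a like number of reads (grey bars). Tnf lies lowest at 0.627, Tnfrsf1a and Ripk1 have intervals above 1, and every point lies within its grey bar.

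Levels between genes were compared as mean reads per intron of the gene's best-covered transcript, in RPM, since a gene with more introns collects more spliced reads. Introns of that transcript without reads count in the mean, and reads on other introns do not. Tnip1 had reads on 16 of 18 such introns and Traf2 on 9 of 10. Tnfrsf1b was the most abundant member, at 90.8 in the untreated and 77.95 in the IL-10 library, and ranked 161 of the 8367 genes in the untreated library. Adam17 followed at 28.1 and 22.7, and Tnfrsf1a at 15.6 and 20.3. Tnip1 (9.74 and 8.94), Ltbr (9.37 and 10.01), Ripk1 (9.02 and 10.8), Tnfaip3 (7.499 and 7.42) and Tradd (6.14 and 6.64) lay close together. In that stretch the order of Tnip1, Ltbr and Ripk1 differed between the libraries. Tnf was low, at 4.57 and 2.87, although it still stood above 62.05% of the genes tested in the untreated library. Traf2 was lowest, at 1.11 and 1.49.

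**Figure D2:**
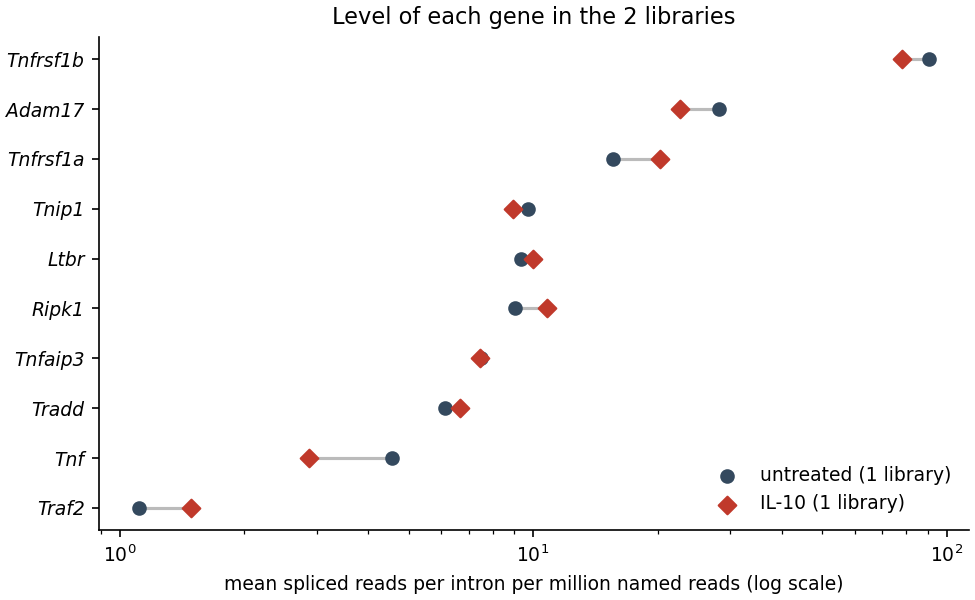
Mean spliced reads per intron in RPM (log axis) for each of the 10 genes in the untreated library (circles) and the IL-10 library (diamonds), 1 library each. The genes span from Traf2 at 1.11 to Tnfrsf1b at 90.8 in the untreated library, and the gap between the libraries is small beside the distance between the top and the bottom gene.

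The ligand gene Tnf (chromosome 17, minus strand, introns from 35337509 to 35338599 in mm9) had 33 reads with IL-10 and 53 without. Its ratio was 0.627 (95% interval 0.393 to 0.987), and 5.35% of the genes tested had a lower ratio. Spread over its 3 introns, the reads were 18 and 23 on the first, 3 and 6 on the second, and 12 and 24 on the last, so the IL-10 library was the lower on each. The first intron holds the most reads, and alone it gave 0.788 (0.401 to 1.53), while the other introns together had 15 and 30 reads (0.504, 0.252 to 0.966). With 99% intervals the range was 0.341 to 1.13. All of these introns lie within coding sequence. The joined exon ends that these reads cross are shown because they are the whole measurement of Tnf here, with the upstream exon in lower case and the downstream exon in capitals:
Tnf intron 1: ccccaaagggatgagAAGTTCCCAAATGGC
Tnf intron 2: agaccctcacactcaGATCATCTTCTCAAA
Tnf intron 3: tagcccacgtcgtagCAAACCACCAAGTGG

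Adam17, which encodes the protease that sheds TNF and its receptors, had 1574 reads with IL-10 and 1959 without. The ratio was 0.809 (0.757 to 0.865), on chromosome 12, minus strand, with introns from 21331488 to 21379196. Among 19 introns with 5 or more reads, 15 lay below 1 and 4 above. Of the 18 introns with at least 20 reads, the interval lay wholly below 1 for 8 and wholly above 1 for 0. Across all genes 6.48% of introns with that many reads had an interval below 1 and 7.33% above. The spread along the gene was wide: intron 2 had 9 and 23 reads (0.394, 0.161 to 0.884) and intron 3 had 65 and 55 (1.19, 0.819 to 1.74).

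The last intron of Adam17, number 18, held the most reads, 257 with IL-10 and 427 without (0.606, 0.517 to 0.7095). That was 16.3% (14.5 to 18.2) of the gene's reads with IL-10 and 21.8% (20 to 23.7) without. Without this intron the gene had 1317 and 1532 reads, a ratio of 0.866 (0.804 to 0.933), so the difference was smaller but its interval still lay below 1. The intron lies at chr12:21331488-21331979 within coding sequence, and its joined exon ends, with the downstream exon in capitals, read:
Adam17 intron 18: ctgtttcatcacagtAACATTGAGATGCTG

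The receptor genes Tnfrsf1a and Tnfrsf1b stood on opposite sides of 1. Tnfrsf1a (chromosome 6, plus strand, introns from 125300081 to 125311704) had 700 reads with IL-10 and 544 without. Its ratio of 1.30 (1.16 to 1.45) was higher than that of 85.9% of the genes tested. Over all genes 7.33% of introns with at least 20 reads had an interval above 1 and 6.48% below. Over the 10 members, 6 of 85 such introns had an interval above 1 and 15 below. Of the 9 introns of Tnfrsf1a, 7 lay above 1, and 4 had an interval above 1. These 4 were intron 2 with 106 and 76 reads, intron 4 with 156 and 108, intron 7 with 92 and 64, and intron 8 with 115 and 79. The lowest was intron 1 with 13 and 17 reads (0.770, 0.344 to 1.68), and the highest was intron 9 with 49 and 33 (1.496, 0.943 to 2.40). Under every alternative run for this gene the ratio stayed between 1.26 and 1.46, each with an interval above 1.

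Tnfrsf1b (chromosome 4, minus strand, introns from 144806004 to 144836626) had 2695 reads with IL-10 and 3161 without, a ratio of 0.859 (0.816 to 0.9045). Of 9 introns with at least 20 reads, the interval lay wholly below 1 for 5 and wholly above 1 for 1. Over all genes the shares of such introns were 6.48% below and 7.33% above. By the ratio alone 3 of the 9 lay above 1 and 6 below. The interval wholly above 1 was that of the first intron, which joins the first exon to the second, with 237 and 188 reads (1.27, 1.04 to 1.55). Introns 7 (136 and 136 reads) and 8 (188 and 183) lay just above 1, with intervals that include 1. The last intron was lowest with 82 and 123 (0.672, 0.502 to 0.895), and intron 6 had 167 and 250 (0.673, 0.550 to 0.822). Most reads fell on intron 3, with 704 and 899 (0.789, 0.714 to 0.872). The joined exon ends of the best-covered intron of each receptor gene, both in coding sequence and with the downstream exon in capitals, are given for comparison:
Tnfrsf1a intron 4: ccgtgacaatcccctGTAAGGAGACTCAGA
Tnfrsf1b intron 3: cttcctgtaccactgACCAGGTGGAGATCC

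The balance of these receptor genes does not depend on how the libraries are scaled. Per intron, Tnfrsf1b exceeded Tnfrsf1a 5.81-fold in the untreated library and 3.85-fold in the IL-10 library. The ratio of Tnfrsf1a to Tnfrsf1b reads was thus 1.51 times as high with IL-10 (exact conditional interval 1.33 to 1.71). This is 1 of 9 pairs of members compared, chosen with their values in view, and its interval describes counting error. In the same way, Adam17 relative to Tnfrsf1a was 0.625 times as high with IL-10 (0.547 to 0.713), and Tnf relative to Tnfrsf1a was 0.484 times as high (0.299 to 0.774). All of these pairs share the Tnfrsf1a reads, so they are not independent. Tnf relative to Adam17 was 0.775 times as high (0.4835 to 1.23), an interval that includes no difference. The intervals of the pairs not given here include it too.

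Ltbr also lies on chromosome 6, on the strand opposite to that of Tnfrsf1a, with 36473 bases between their nearest introns. It had 346 and 326 reads, a ratio of 1.07 (0.916 to 1.25). Intron 1 held the most, 93 and 86. Its 9 introns, from 125257490 to 125263607, ranged from 0.850 (27 and 32 reads, intron 4) to 1.47 (38 and 26 reads, intron 7), and 0 had an interval that excluded 1. The ratio of Tnfrsf1a reads to Ltbr reads was 1.21 times as high with IL-10 (0.9997 to 1.47), an interval that includes no difference.

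**Figure D3:**
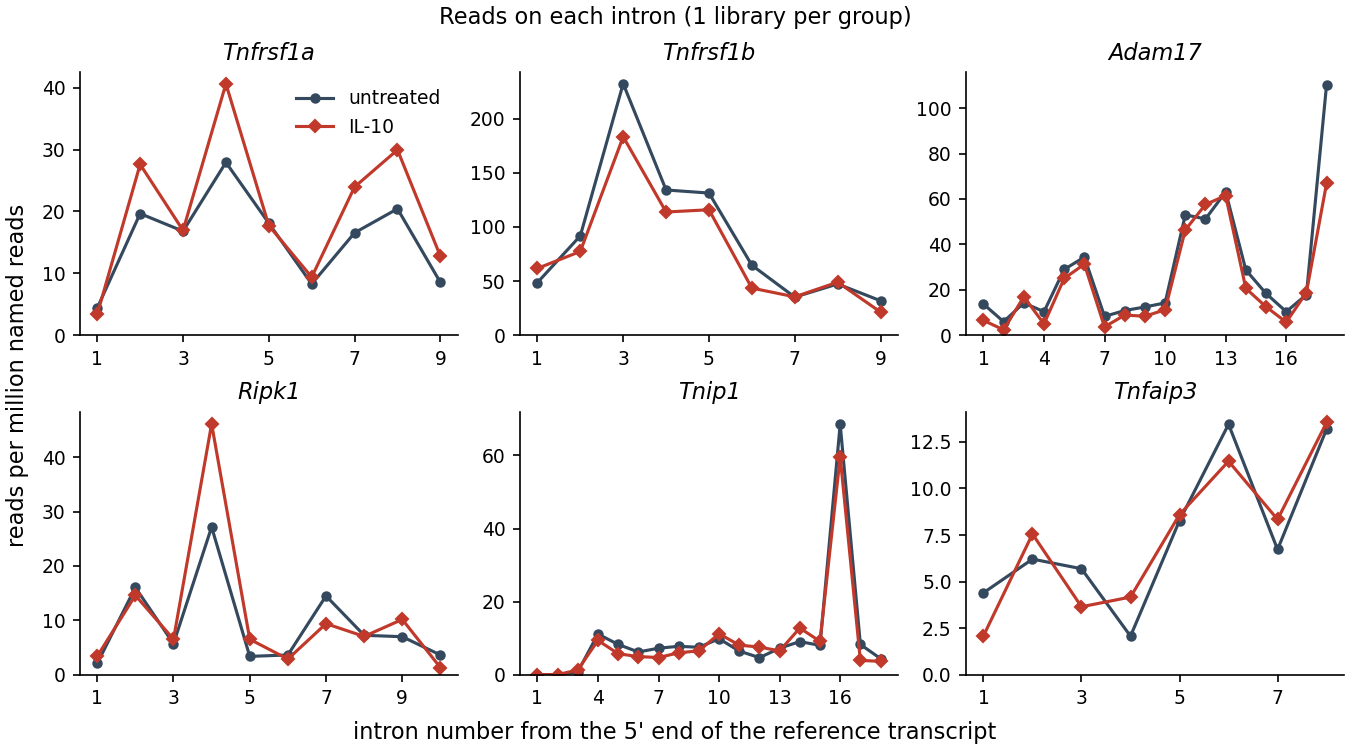
Reads in RPM on each intron, numbered from the 5' end of the best-covered transcript, for Tnfrsf1a, Tnfrsf1b, Adam17, Ripk1, Tnip1 and Tnfaip3, in the untreated library (circles) and the IL-10 library (diamonds). Coverage is uneven along each gene, and the libraries part at intron 18 of Adam17 (257 reads with IL-10, 427 without), intron 3 of Tnfrsf1b (704 and 899) and intron 4 of Ripk1 (177 and 105).

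Of the proteins that join the receptor platform, Ripk1, a kinase that steers between survival and death, was the member with an interval that excluded 1. Its gene (chromosome 13, plus strand, introns from 34094576 to 34124364) had 414 reads with IL-10 and 349 without, a ratio of 1.195 (1.03 to 1.38). That difference rested on a single intron. Intron 4 had 177 and 105 reads (1.698, 1.33 to 2.18), 42.8% (37.9 to 47.7) of the gene's reads with IL-10 and 30.1% (25.3 to 35.2) without. The other introns together had 237 and 244 reads, a ratio of 0.979 (0.815 to 1.17), and 5 of all 10 introns lay above 1 and 5 below. The highest intron was number 5, with 25 and 13 reads (1.94, 0.954 to 4.12), and the lowest with at least 20 reads was number 7, with 36 and 56 (0.648, 0.414 to 1.002). Intron 4 lies at chr13:34105257-34106994 in coding sequence. Its joined exon ends are shown because the value of the gene turns on them, with the downstream exon in capitals:
Ripk1 intron 4: gactttcacattaagATAGCCGATCTTGGT

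Tradd, the adaptor that recruits Ripk1 and Traf2, had 102 and 95 reads on chromosome 8 (minus strand, introns from 107783196 to 107788460), a ratio of 1.08 (0.8098 to 1.45). Intron 2 held 64 and 47 of them (1.37, 0.927 to 2.04), and the other 3 introns together had 38 and 48 (0.7975, 0.507 to 1.25). The lowest with at least 20 reads was intron 4, with 10 and 19 (0.530, 0.220 to 1.20). Its introns thus lay on both sides of 1, 2 above and 2 below. Traf2, a scaffold for ubiquitin ligases (chromosome 2, minus strand, introns from 25375149 to 25402381), had 57 and 43 reads, a ratio of 1.34 (0.883 to 2.03). Only intron 1 reached 20 reads, with 20 and 15 (1.34, 0.654 to 2.82). Intron 2 had 0 reads with IL-10 and 5 without. No difference in Traf2 was called, since the interval of the gene includes 1.

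Of the brakes, Tnip1 was lower in the IL-10 library by a margin that barely excluded 1, and Tnfaip3 had an interval that includes 1. Tnfaip3 (chromosome 10, minus strand, introns from 18722822 to 18734958) had 235 reads with IL-10 and 248 without, a ratio of 0.955 (0.795 to 1.15). Its most read intron, number 8, had 52 and 51 reads, and the highest ratio was at intron 4, with 16 and 8 (2.01, 0.814 to 5.44). A pair of alternative first exons is joined to the same second exon. The junction from the outer first exon, chr10:18731597-18734958, had 8 and 17 reads (0.474, 0.177 to 1.16). The junction from the inner first exon, chr10:18731597-18734207, had 7 and 16 (0.441, 0.153 to 1.13) and was the lowest with at least 20 reads. Together they had 15 and 33 reads, a ratio of 0.458 (0.231 to 0.867), while the other introns of Tnfaip3 had 220 and 215 (1.03, 0.850 to 1.25). These intervals overlap, and the first exons were summed after their values were seen.

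Tnip1 (chromosome 11, minus strand, introns from 54725000 to 54776334) had 634 reads with IL-10 and 712 without, a ratio of 0.897 (0.805 to 0.9998). The upper bound all but touches 1, and it passed 1 when the libraries were scaled by the TMM factor (1.003) or by all junction reads (1.002). It also passed 1 with a 99% interval (1.034), on the best-covered intron alone (1.043) and without that intron (1.046). Intron 16 held 229 and 265 reads (0.8705, 0.726 to 1.04), 36.1% and 37.2% of the gene. The highest intron was number 12, with 29 and 18 (1.62, 0.871 to 3.10). Intron 17 had 15 and 32 (0.472, 0.238 to 0.898). The lowest with at least 20 reads was the junction from an inner first exon, chr11:54753238-54769522, with 8 and 20 (0.403, 0.154 to 0.955). From the same exon to a further acceptor at 54754385 there were 0 and 4 reads. The outer first exon had 4 and 9 reads to the first of these acceptors and 2 and 0 to the other. Intron 3, from the exon between to the first of these acceptors, had 5 and 3.

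The junction with the lowest ratio among those with at least 20 reads is shown for each brake gene. For Tnfaip3 the junction from the other first exon is added. Each lies in the 5' untranslated region, with the downstream exon, common to both Tnfaip3 junctions, in capitals:
Tnfaip3 outer first exon: gcgcggccccaagagGCCTTGTCGAGGACC
Tnfaip3 inner first exon: ctcaggaaagctgagGCCTTGTCGAGGACC
Tnip1 inner first exon: agctctcgtcctaggGGGAGCTTCTGGAGG

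Upstream of the genes, 11 promoter windows from RefSeq (build GRCm38.p6) matched 9 of the 10 members, each read over the 250 bases before the gene's start. The kappaB consensus, the motif of NF-kB, was searched on both strands. It was found in 2 of the 11 windows, those of Tnip1 and of the first start of Tnfaip3, against 3.90% of 32851 windows of the same length over all genes. In Tnip1 the 3 matches overlap in a single stretch, and in Tnfaip3 there are 2 separate matches. The motif TTCNNNGAA, bound by STAT proteins and searched on both strands, was found in 4 of the 11 windows (those of Tnfrsf1a, Tnfrsf1b, Tnip1 and the second start of Ripk1), against 7.02% of all windows. A match is a description of the letters, not evidence of binding. The windows of the brake genes, on the strand of the gene and with kappaB matches in capitals, lie at chr10:19015411-19015660 and chr11:54962941-54963190 in GRCm38.p6, both on the minus strand:
Tnfaip3 promoter: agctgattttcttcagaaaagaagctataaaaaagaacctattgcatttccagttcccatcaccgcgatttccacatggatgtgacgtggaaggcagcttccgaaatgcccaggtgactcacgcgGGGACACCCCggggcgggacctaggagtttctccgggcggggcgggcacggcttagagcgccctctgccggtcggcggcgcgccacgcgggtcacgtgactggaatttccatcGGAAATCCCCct
Tnip1 promoter: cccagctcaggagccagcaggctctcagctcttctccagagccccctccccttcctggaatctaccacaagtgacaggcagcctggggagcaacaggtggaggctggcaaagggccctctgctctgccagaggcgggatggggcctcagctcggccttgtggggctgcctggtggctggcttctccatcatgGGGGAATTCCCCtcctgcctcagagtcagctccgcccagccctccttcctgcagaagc

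No difference in splice-site choice within the members passed the thresholds used. Of 44 donor or acceptor sites used by several junctions, 28 had at least 20 reads in each library. None of the 28 differed by 20 percentage points, or by 10, with intervals that do not overlap. At 5 of these sites a second junction took at least 5% in a library. The largest such share was in Tnip1, at a donor on chromosome 11 at 54753099, where a junction outside the annotation, ending 5 bases from the annotated acceptor, took 5 of 41 reads with IL-10 (12.2%, 4.08 to 26.2) and 9 of 52 without (17.3%, 8.23 to 30.3). In Tnfrsf1a an acceptor at 125310514 was joined to the annotated donor in 68 of 74 reads (91.9%) with IL-10 and 70 of 72 (97.2%) without. The acceptor of Tradd at 107784581 took its annotated junction in 23 of 23 and 22 of 24 reads. The minor junctions at the donors of Tnfaip3 (18724262) and Tnip1 (54731301) had at most 2 reads in a library.

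Beside 103 annotated introns with reads, the members held 46 junctions outside the annotation, with 105 reads with IL-10 and 116 without. Of these 46, 38 had at most 5 reads over both libraries. A subset of 7 had the exact length of an annotated intron but lay up to 5 bases from it, with 60 and 68 reads. The most read was in Tnfrsf1b, with 32 and 29 reads beside the annotated intron 7 with 136 and 136. Next came Adam17, with 13 and 22 reads beside the annotated intron 10 with 43 and 55. In Tnfrsf1b a junction from the first exon to the fourth, leaving out the exons between, had 4 and 6 reads.

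Around the members, 107 further genes of the pathway were listed, and 65 of them had at least 20 reads. Of these 65, 1 was 2-fold higher in the IL-10 library and 0 were lower, where 1.74% and 1.49% of all genes were. By the interval alone 11 were higher and 6 lower, where 12.8% and 13.1% of all genes were. That rate rose with depth, from 6.21% higher and 7.14% lower at 20 to 100 reads to 27.7% and 28.9% at 1500 to 6000 reads. The counts per role that follow were not matched to a rate of like depth. The median log2 ratio of the 65 genes was 0.11, beside 0.00 for all genes tested. Genes named here come from the 3 of each role with the ratio furthest from 1.

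Of 15 other ligands of the TNF family, Tnfsf13b had 7 reads in each library. The rest had no value by the naming rule, so their level was not measured. Among the receptors 9 of 24 were measured, with 1 interval above 1 and 0 below. Relt, an orphan receptor of the family, had 23 reads against 7 (3.31-fold, 1.38 to 9.13). Cd40, which takes the T cell signal, had 33 and 19 (1.75, 0.966 to 3.26), and the death receptor gene Fas 38 and 27 (1.42, 0.843 to 2.42), both with intervals that include 1. Relt has too few reads to be tested at a minimum of 100 reads.

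Adaptors and ubiquitin ligases had 12 of 14 measured, with 1 higher and 1 lower. Birc3, a ubiquitin ligase that joins Traf2 and modifies Ripk1, had 59 and 34 reads (1.75, 1.13 to 2.75). Its close paralog Birc2, outside the naming rule, had 22 and 19 (1.17, 0.6025 to 2.28). Whether reads of these paralogs were mistaken for each other was not tested. Traf6 (1.39, 0.877 to 2.23) and Cradd (1.46, 0.575 to 3.86) had intervals that include 1. The lower member was the ubiquitin-binding scaffold gene Sqstm1, outside the naming rule, with 2197 and 2763 reads (0.801, 0.757 to 0.848).

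Of the kinases and their partners, 14 of 14 were measured, with 3 higher and 2 lower. Map3k8, which relays TNF signals to ERK, had 56 and 33 reads (1.71, 1.09 to 2.71), and Tab2, the ubiquitin-binding subunit of a kinase recruited to the platform, had 187 and 113 (1.67, 1.31 to 2.12). Map3k14, the kinase of the branch that runs through Ltbr, stood at 1.60 (0.914 to 2.87). The remaining gene above 1 was Mapkapk2 (1.15, 1.06 to 1.25), and the lower genes were Tank (0.782, 0.658 to 0.929) and the IkB kinase gene Ikbkb (0.826, 0.7005 to 0.974), these 3 named after their values were seen.

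Further brakes had 12 of 17 measured, with 2 higher and 1 lower. Tnip2, which encodes a relative of the protein of Tnip1, had 151 and 105 reads (1.45, 1.12 to 1.88). Otud7b, a deubiquitinase, had 47 and 31 (1.53, 0.9502 to 2.487) and Zc3h12a, an RNase that cuts cytokine mRNAs, 71 and 56 (1.28, 0.887 to 1.85). The other gene above 1 was Usp4 (1.14, 1.04 to 1.24) and the gene below 1 was Itch (0.839, 0.731 to 0.962), both named after their values were seen. In the cell death group 7 of 8 were measured, with 2 higher and 0 lower. Ripk3, the partner of Ripk1 in necroptosis, had 129 and 93 reads (1.40, 1.06 to 1.84), while Bid, which carries the death signal to mitochondria, stood at 0.739 (0.512 to 1.06).

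The shedding group, which surrounds Adam17, had 7 of 9 measured, with 2 higher and 1 lower. Furin, the convertase that removes the prodomain of such proteases, had 1273 and 870 reads (1.47, 1.35 to 1.61), and the metalloprotease inhibitor gene Timp1 had 466 and 302 (1.55, 1.34 to 1.80). Timp3, which encodes the inhibitor known for blocking Adam17, had only 6 and 14 reads (0.432, 0.136 to 1.20). The lower gene was Timp2 (0.859, 0.8096 to 0.912), named after its value was seen. In the last group, with 4 of 6 measured, Litaf had 3141 and 3488 reads (0.907, 0.864 to 0.952). Tnfaip8 (1.05, 0.568 to 1.95) and Tnfaip1 (1.04, 0.805 to 1.35) had intervals that include 1.

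**Figure D4:**
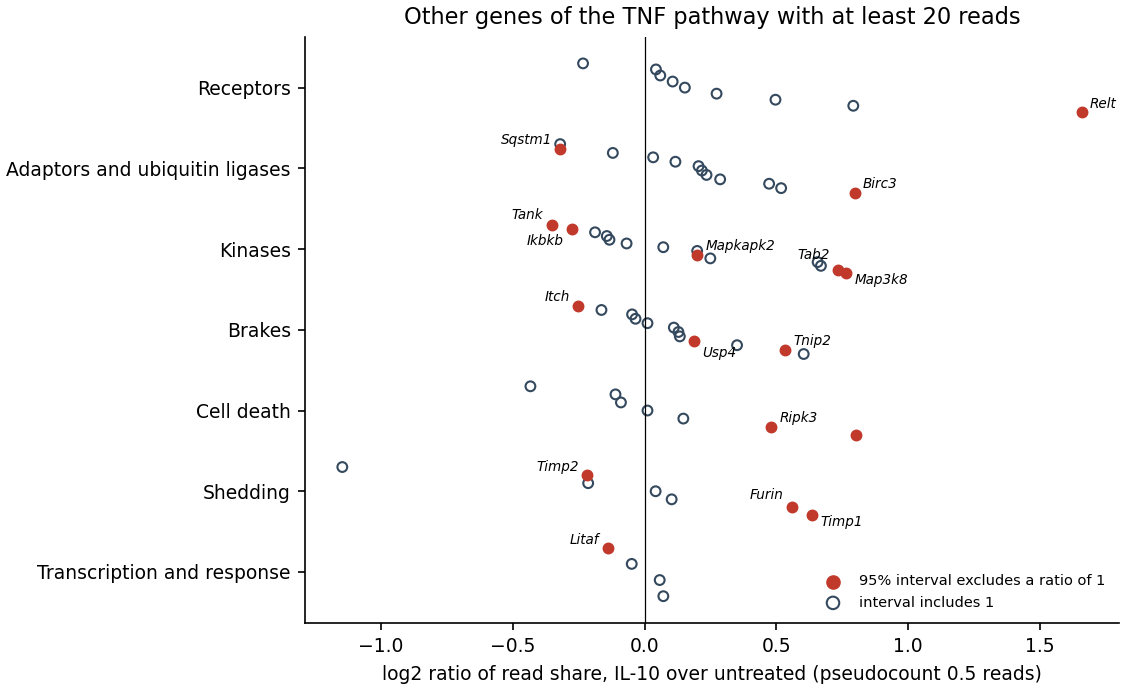
Log2 ratio of read share, IL-10 over untreated, for the 65 further pathway genes with at least 20 reads, by role, with filled points (labelled where the text names the gene) where the 95% interval excludes a ratio of 1 and open points where it includes 1. Of the filled points 11 lie above 0, led by Relt with 23 and 7 reads, and 6 lie below.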

How the data were processed

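Both libraries were sequenced from total RNA. The submitters' processing notes name mm9, TopHat and Cufflinks, and versions are not given in the sources used here. Per the file headers, the deposited values are counts of reads across each TopHat splice junction, not scaled. The untreated sample's protocol text repeats the treatment, so groups were taken from titles. The labels give an insert of 188 bp for the IL-10 library and 197 bp for the other.

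Genes were named from GENCODE M21, which is on GRCm38. A junction took a gene's name where an annotated intron on the same chromosome and strand had exactly its length, and where 2 or more introns of that gene were displaced by the same distance, up to 20 Mb. This matched 106362 of 131057 junctions (98.1% of reads) to 10772 genes. Genes with a lone matched intron have no value. Junction coordinates are those of the deposited mm9 lists. Exon ends come from GENCODE M21 transcripts and promoters from RefSeq.

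Reads were summed over introns of a single gene and divided by the library's total over such introns. Ratios carry exact conditional binomial (Clopper-Pearson) 95% intervals, and shares exact binomial ones. A gene was called 2-fold with 20 or more reads, an interval excluding 1 and a ratio from 2 upward or from 0.5 downward. Log2 ratios used a pseudocount of 0.5 reads. The procedure was run on simulated reads with known ratios and counting error alone, which cannot show how libraries of the same group vary. Named genes were the 10 members, the 3 genes of each role furthest from a ratio of 1, and for each member the intron with the most reads and those of at least 20 reads with the highest and lowest ratio. A gene that this rule names is not reported here. Members and lists were chosen with earlier results of these data known. Analyses ran in Python 3.11.15 (scipy 1.17.1) and R 4.3.3 (edgeR 4.0.16, DESeq2 1.42.0, for scaling factors only).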

Additional observations from a re-analysis of the deposited data

How the results depend on the processing

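Relative to the total of named reads, the TMM factor was 0.996, the median-of-ratios factor 1.01 and the total of all junction reads 0.998. No paired analysis was possible because each group has 1 library, and for the same reason no library could be left out. Tnfrsf1a, Tnfrsf1b and Adam17 kept their direction and an interval excluding 1 under all 11 alternatives run, Adam17 between 0.606 and 0.866. For Tnf the interval included 1 at 99% and on its best-covered intron alone. For Ripk1 it included 1 at 99% (0.989 to 1.45) and without its best-covered intron.

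Among all genes, 2-fold calls moved to 190 lower with no minimum of reads, to 37 higher and 10 lower with at least 100 reads, to 356 and 336 at 1.5-fold, to 53 and 29 at 3-fold, and to 77 lower with 99% intervals. Interval calls moved to 676 higher and 670 lower at 99%, and to 632 and 587 on each gene's best-covered intron. Of the members, 1 was called lower at 1.5-fold (Tnf). Interval calls among members became 1 higher and 2 lower at 99%, 2 lower on the best-covered intron, and 1 higher without that intron, a setting chosen after seeing the data. The pathway list had 0 genes 2-fold higher with at least 100 reads, 6 at 1.5-fold and 2 with all junctions in the gene span, and interval calls of 7 higher and 1 lower on the best-covered intron.

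Reversals were Tnfaip3 (1.03, best-covered intron), Tradd (0.998, all junctions in the span, and 0.7975 without the best-covered intron) and Ripk1 (0.979 without it). The cause was not tested. The splice-site count was 0 with 10 or 50 reads per site and at 10 or 30 points. Depth limits Tnf, Traf2 and Tradd most.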
